A study of Mus musculus with 10 samples.

Results

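The genes described here encode Toll-like receptors (Tlr1, Tlr2, Tlr3, Tlr4, Tlr5, Tlr7 and Tlr9), the cytosolic NOD receptors (Nod1 and Nod2) and the adaptor Myd88. They were followed through the probe sets whose platform annotation names only that gene, which gave 15 of the 45101 probe sets on the array and 9 of the 10 listed genes, out of 18194 genes in all. Nod2 had no such probe set and was not analysed here. Tlr4 had 4 probe sets, Tlr7 had 3, Tlr3 had 2 and each of the other genes had 1. Where a gene had several, the probe set with the highest mean signal represented it, and the others are given beside it.

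The arrays read RNA from jejunum, ileum, distal colon, liver and spleen of male ICR mice, an outbred stock, at 28 months and at 4 months of age. For each tissue, equal amounts of RNA from 9 mice at 28 months, or from 6 mice at 4 months, were pooled and read on 1 Affymetrix mouse expression array. All mice were kept singly in specific-pathogen free housing on the AIN-93 diet. The older mice had been bought at 8 months of age and the younger ones at 2 months. No genotype or treatment differed between the groups, and the position of each segment along the intestine was not given. A pool hides the spread between mice, and since each tissue had 1 array at each age, differences within a tissue had no replicate check.

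Pattern recognition receptors bind molecules that microbes share and start inflammatory signalling. TLR1, TLR2, TLR4 and TLR5 sit at the cell surface and recognise parts of the microbial envelope and flagella, TLR3, TLR7 and TLR9 sit in endosomes and recognise nucleic acids, and NOD1 and NOD2 recognise peptidoglycan fragments in the cytosol. Every Toll-like receptor named here other than TLR3 signals through MyD88, while NOD receptors signal through a separate kinase. In the gut these genes are used by epithelium and by resident immune cells that face the microbiota, in the liver by Kupffer cells and hepatocytes, and in the spleen by macrophages, dendritic cells and B cells.

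Signals are given in arbitrary units after each array was scaled to a trimmed mean of 500. A floor of 111 units, the median of all signals, stood for background, and genes were taken as measured where either age exceeded it. Ratios are log2 of the 28-month signal divided by the 4-month signal, and a ratio with 1 age below the floor is a bound taken against the floor. Differences between tissues and the effect of age over all tissues were fitted with limma to log2 signals raised to the floor, with Benjamini-Hochberg adjustment over 13995 genes and a threshold of 0.05. In that model the 2 ages of a tissue, or the 5 tissues, stand in for replicates, so its p-values measure only the spread between these pooled arrays. Values raised to the floor add no spread, so differences taken against the floor have SEs and p-values that rest partly on them.

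Liver, spleen, ileum and distal colon carried their defining genes, while the genes read as a check included none particular to jejunum. Alb, the serum albumin of hepatocytes, had 50608 units in liver at 28 months and 51037 at 4 months, Ms4a1, the B cell protein CD20, had 12818 and 14092 in spleen, Fabp6, the ileal bile acid binding protein, had 35831 and 20178 in ileum, and Hoxb13, a hindgut transcription factor, had 8492 and 6355 in distal colon. The ileum array of 4 months also held Lct, the lactase of the upper small intestine, at 14054 units, against 92 at 28 months, while jejunum had 3600 at 28 months and 12629 at 4 months. The spleen array of 4 months held Cela2a, a pancreatic elastase, at 8306 units, against 57 at 28 months, and both jejunum arrays held it as well (9811 and 10404). The 3 intestinal arrays of 28 months were numbered and titled apart from the other 7, so in the intestine age and this division of the arrays cannot be told apart. In these bulk samples fewer cells of a type and less RNA per cell cannot be told apart either.

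Promoter sequences are shown for Tlr1, Tlr2 and Nod1, which were highest in spleen and distal colon, and for Tlr3, whose mean level was highest in the small intestine. They are the 250 bases before the annotated start from RefSeq (build GRCm38.p6), printed 5′ to 3′ on the strand of the gene, with motif matches in capitals. Windows were matched for 8 of the 10 listed genes, all but Tlr4 and Tlr7.
Tlr1, chr5:64933559-64933808, minus strand: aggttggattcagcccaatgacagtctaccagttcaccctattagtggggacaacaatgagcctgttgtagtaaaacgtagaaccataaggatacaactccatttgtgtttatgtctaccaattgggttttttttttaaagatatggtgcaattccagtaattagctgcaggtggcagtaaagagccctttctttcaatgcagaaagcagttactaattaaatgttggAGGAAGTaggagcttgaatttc
Tlr2, chr3:83841609-83841858, minus strand: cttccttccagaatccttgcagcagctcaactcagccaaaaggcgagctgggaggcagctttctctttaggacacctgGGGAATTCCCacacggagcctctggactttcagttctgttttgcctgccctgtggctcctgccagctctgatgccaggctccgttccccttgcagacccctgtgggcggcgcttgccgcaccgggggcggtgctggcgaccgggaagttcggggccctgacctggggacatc
Nod1, chr6:54972613-54972862, minus strand: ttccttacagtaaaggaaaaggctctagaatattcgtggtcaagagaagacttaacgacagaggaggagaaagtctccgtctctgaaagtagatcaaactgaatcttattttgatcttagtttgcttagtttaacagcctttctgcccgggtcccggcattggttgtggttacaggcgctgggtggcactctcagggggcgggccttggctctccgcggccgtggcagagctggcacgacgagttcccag
Tlr3, chr8:45410381-45410630, minus strand: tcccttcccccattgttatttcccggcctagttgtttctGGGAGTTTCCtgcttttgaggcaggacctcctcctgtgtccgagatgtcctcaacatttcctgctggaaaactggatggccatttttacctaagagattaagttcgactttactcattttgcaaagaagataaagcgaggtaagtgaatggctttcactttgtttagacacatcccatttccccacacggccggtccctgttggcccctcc

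Both strands of each window were searched for the ETS motif AGGAAGT, the interferon regulatory factor motif (GAAA, any 2 bases, GAAA), the NF-kappa-B motif (GGGA, any base, TT, any base, CC) and the AP-1 motif TGANTCA. No motif overlapped another, and they were chosen after the sequences had been seen. The Tlr1 window held AGGAAGT between 22 and 16 bases before the start, a motif present in 7.69% of 32851 windows of the same length. Tlr2 held GGGAATTCCC between 172 and 163 bases before the start and Tlr3 held GGGAGTTTCC between 211 and 202, both of them forms of the NF-kappa-B motif that 0.98% of windows held. Myd88 held GAAAGCGAAA between 40 and 31 bases before the start (2.98% of windows), and Tlr9 held TGACTCA between 58 and 52 (6.75% of windows). None of the 4 motifs was found in the windows of Nod1, Tlr5 and Nod2 or at the other annotated start of Tlr1. A match describes letters only, and binding was not measured.

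Tlr1, Tlr2, Tlr4 and Nod1 were higher in distal colon than in the small intestine and higher in spleen than in the mean of the other tissues, with spleen and distal colon overlapping for Tlr2 and Tlr4. Tlr3 had its highest mean levels in the small intestine, where ileum overlapped distal colon, and Tlr5 was highest in liver. Over the 9 genes, 6 passed the test as higher in spleen than in the mean of the other 4 tissues, where 33.4% of all genes did, and 2 as lower, where 33.3% did. In liver 1 was higher than in the other 4 tissues and 5 were lower, against 25.9% and 37.5% of all genes. In distal colon 4 were higher than in jejunum and ileum and 0 lower, against 25.4% and 15.0% of all genes. None of the 9 differed between ileum and jejunum, where limma called 0.993% of all genes, and none of the 9 had an unadjusted p under 0.05 there. Every jejunum and ileum array of Tlr4 and Tlr7 was below the floor, so neither gene could differ in that contrast. Tlr7 was below it in distal colon as well and could not differ there either.

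**Figure D1:**
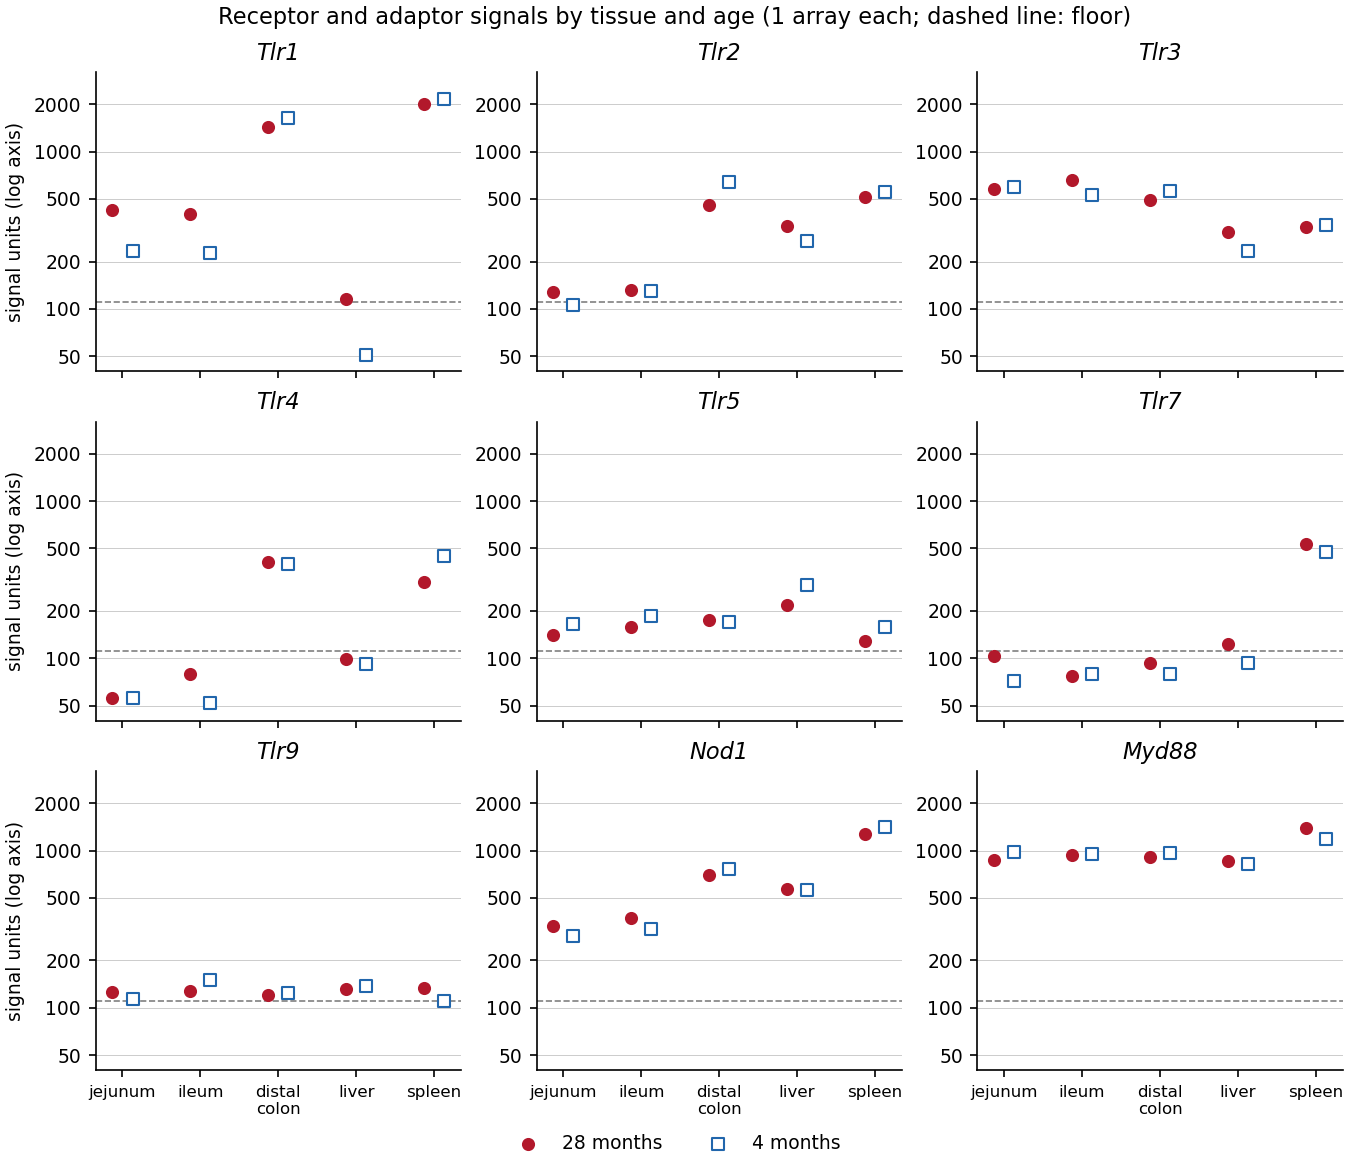
Signal of the 9 genes by tissue, in units on a log axis, with 28 months (filled circles) to the left of 4 months (open squares) and the floor of 111 units as a dashed line. Each point is 1 array of pooled RNA. Tlr1 spans the widest range, up to 2175 units in spleen, and Tlr9 lies near the floor in all 5 tissues.

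Tlr1 encodes the receptor that pairs with TLR2 on triacylated bacterial lipopeptides, and it had the widest range of the 9 genes. Its signal was 2022 units in spleen at 28 months and 2175 at 4 months, 1441 and 1628 in distal colon, 424 and 234 in jejunum, 399 and 228 in ileum, and 115 and 51 in liver. The order was spleen, distal colon, small intestine and liver at both ages, and only jejunum and ileum overlapped. Tlr1 was 2.55 higher (SE 0.24) on the log2 scale in spleen than in the mean of the other tissues (limma adjusted p = 0.000168). It was 2.31 higher (SE 0.26) in distal colon than in jejunum and ileum (limma adjusted p = 0.00157), which is 4.97-fold. In liver, where the 4-month array lay below the floor, the difference from the mean of the others was -2.72 against the floor (limma adjusted p = 0.000144), and the mean level in spleen was at least 18.6-fold that in liver.

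Tlr1 was also the gene with the largest ratio between the ages. It was 1.81-fold higher at 28 months in jejunum (0.86) and 1.75-fold higher in ileum (0.80). Each of these ratios rests on 1 array per age. Both 28-month arrays are among those numbered and titled apart, and the ileum arrays also differed in Lct. Among measured genes, 0.422% had a higher ratio in jejunum and 2.13% in ileum. In distal colon and spleen the ratio was -0.18 and -0.11. In liver it was 0.05 as a bound, because 51 units at 4 months lay below the floor, and 1.16 between the signals as measured. Set against the median SD of 0.113 in jejunum and 0.135 in ileum between log2 ratios of probe sets of the same gene, both small intestinal ratios were larger, but that spread holds no variation between mice. Over the 5 tissues the age effect of Tlr1 was 0.29 (SE 0.19, 95% interval -0.17 to 0.75) and did not pass the test (limma adjusted p = 0.754, between 0.648 and 0.951 over the alternatives). Without the ileum array of 4 months it was 0.16, and without both jejunum arrays it was 0.14.

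Markers of immune cells are given beside the Tlr1 ratio because several of these cells carry the receptor. In jejunum the summed signal of 14 macrophage markers was 21919 units at 28 months and 17372 at 4 months, and 1 of the 10 measured members reached 1.5-fold. In ileum the sums were 19162 and 20389, and 2 of 10 did. By direction, 8 were higher at 28 months and 2 lower in jejunum, and 6 were higher and 4 lower in ileum. Clec4f, Timd4, Vsig4 and Marco, which mark Kupffer cells and other resident macrophages, were below the floor in both segments, while Adgre1, the F4/80 antigen, had 344 and 343 units in jejunum and 331 and 297 in ileum, and Csf1r, the receptor for macrophage growth factor, had 4625 and 3921 in jejunum and 3023 and 3700 in ileum. The 11 B cell markers summed to 1725 and 1497 units in jejunum and to 1282 and 1701 in ileum, with Cr2, Fcer2a, Pax5 and Fcrla below the floor. T cell markers summed to 2430 and 2044 in jejunum and to 2239 and 2054 in ileum. Of 8 measured, 6 were higher at 28 months in jejunum, but 6 were lower in ileum. Dendritic cell markers summed to 3717 and 3330 in jejunum and to 3688 and 3626 in ileum. Most of their measured members were nevertheless lower at 28 months, 5 of 8 in jejunum and 6 of 8 in ileum. Cd5, Zbtb46, Xcr1 and Ccr7 were below the floor in both segments. The mesenchymal and smooth muscle markers summed to 34282 and 34185 in jejunum and to 56732 and 39585 in ileum. The part of these cells in the Tlr1 ratio was not tested.

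Tlr6 lies next to Tlr1 on chromosome 5 and encodes the other receptor that pairs with TLR2, on diacylated lipopeptides. It was singled out after its values had been seen. Its signal was 286 units in spleen at 28 months and 308 at 4 months, 153 and 75 in liver, 143 and 92 in jejunum, 134 and 84 in ileum, and 111 and 88 in distal colon. In the small intestine and the liver only the 28-month arrays were above the floor, so Tlr6 was at least 1.29-fold higher in jejunum, at least 1.21-fold in ileum and at least 1.38-fold in liver. In spleen its ratio was -0.11, as was that of Tlr1. Tlr6 was 1.29 higher on the log2 scale in spleen than in the mean of the other tissues (SE 0.12, limma adjusted p = 0.000204), a difference against the floor. Distal colon minus jejunum and ileum was -0.16 against the floor and did not pass the test (limma adjusted p = 0.401). Both distal colon arrays and the 4-month arrays of the others were at or below background there.

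**Figure D2:**
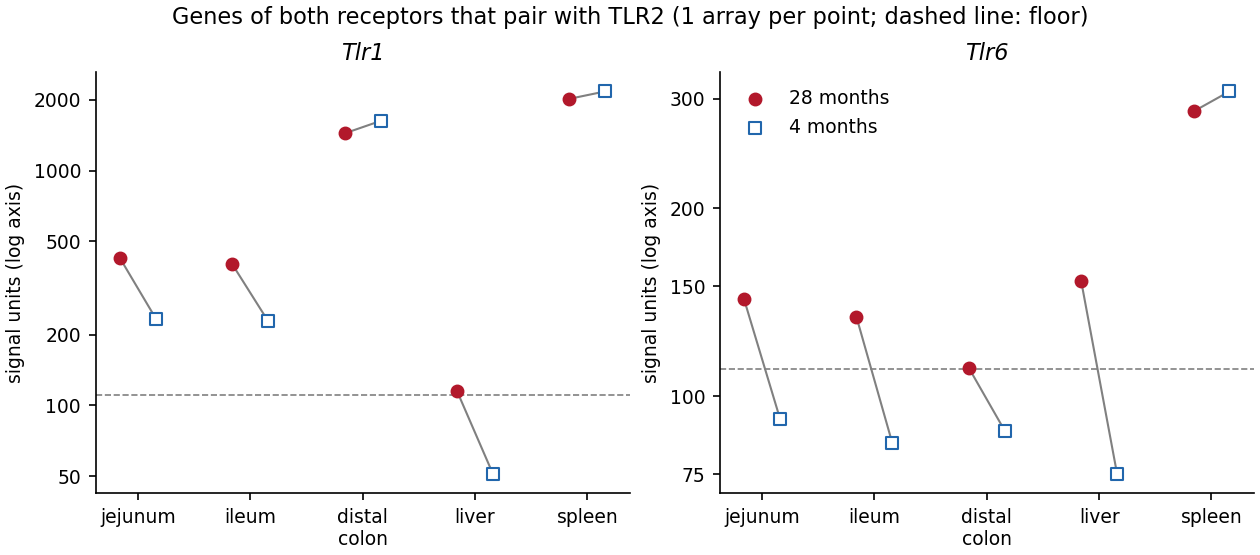
Signals of Tlr1 (left) and Tlr6 (right) by tissue, in units on log axes of different range, with 28 months (filled circles) joined to 4 months (open squares) and the floor of 111 units as a dashed line. Each point is 1 array. Both genes were higher at 28 months in jejunum, ileum and liver and lower in spleen, and the 4-month points of Tlr6 outside spleen lie below the floor.

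Tlr2 encodes the shared partner of these receptors for bacterial lipoproteins. Its signal was 456 units at 28 months and 641 at 4 months in distal colon, 512 and 550 in spleen, 337 and 269 in liver, 131 and 129 in ileum, and 128 and 106 in jejunum. Distal colon and spleen overlapped at the top, liver lay between, and the small intestine was close to the floor. Tlr2 was 2.12 higher on the log2 scale in distal colon than in jejunum and ileum (SE 0.17, limma adjusted p = 0.000549), and 1.24 higher in spleen than in the mean of the others (SE 0.15, limma adjusted p = 0.000586). Liver differed from the mean of the others by 0.22 (95% interval -0.15 to 0.60) and did not pass the test (limma adjusted p = 0.253), but with distal colon left out the difference was 0.58 (limma adjusted p = 0.00842). Between the ages Tlr2 was 1.40-fold lower in distal colon (-0.49), with 3.67% of measured genes lower still, and its ratio was 0.33 in liver, -0.10 in spleen, 0.03 in ileum and 0.20 as a bound in jejunum. In the same distal colon arrays the 10 mesenchymal and smooth muscle markers were all lower at 28 months (summed 92393 and 132726 units at 28 and 4 months), and 4 of them reached 1.5-fold. B cell markers (4736 and 2365 units, 10 of 10 measured higher) and T cell markers (2539 and 1635, 6 of 7 higher) went the other way. Their part in the Tlr2 ratio was not tested.

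Tlr4 encodes the lipopolysaccharide receptor. On its brightest probe set it had 408 units at 28 months and 399 at 4 months in distal colon and 305 and 447 in spleen. The 6 arrays of liver, jejunum and ileum were below the floor, between 52 and 99 units. On this probe set Tlr4 was therefore measured only in distal colon and spleen, and its mean level was at least 3.65-fold higher in distal colon and at least 3.34-fold higher in spleen than in each of the other 3 tissues. Against the floor the difference was 1.87 for distal colon over jejunum and ileum (limma adjusted p = 0.000436) and 1.27 for spleen over the others (limma adjusted p = 0.000228). Liver minus the mean of the others was -0.90 (limma adjusted p = 0.00115), a mean that includes the 2 tissues where the gene was measured.

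Between the ages Tlr4 had a ratio of 0.03 in distal colon and of -0.55 in spleen, where it was 1.46-fold lower at 28 months and 2.50% of measured genes were lower still. A different Tlr4 probe set gave 270 and 306 units in distal colon and 232 and 294 in spleen, with ratios of -0.18 and -0.34. Both probe sets placed spleen lower at 28 months, and they differed in sign in distal colon. In liver this dimmer probe set had 116 and 95 units, above the floor at 28 months only. The other 2 Tlr4 probe sets were below the floor on all 10 arrays. The 4-month spleen array is the one that held the pancreatic gene Cela2a, and a ratio without that array could not be formed. B cell markers summed to 46907 units in spleen at 28 months and 59114 at 4 months, with all 11 lower at 28 months and Cd79a, a B cell receptor subunit, at 519 and 768. Dendritic cell markers summed to 9103 and 11278, with 8 of 11 lower, and macrophage markers to 71647 and 70121. Neutrophil markers went the other way, with 42742 and 16966 units and 10 of 10 higher. Their part in the Tlr4 ratio was not tested.

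Genes that work with TLR4 were named after their values had been seen. Ly96, the MD-2 subunit that binds lipopolysaccharide, had 376 units in spleen at 28 months and 388 at 4 months, 263 and 199 in liver, 255 and 179 in distal colon, and 88 to 95 in the small intestine, below the floor. It was higher in distal colon than in jejunum and ileum by 0.95 (limma adjusted p = 0.00421) and in spleen than in the mean of the others by 1.29 (limma adjusted p = 0.000247), both taken against the floor and so bounds. Cd14, the coreceptor that hands lipopolysaccharide on, had 6522 and 6032 units in distal colon, 2985 and 2333 in ileum, 1227 and 1576 in jejunum, 979 and 684 in spleen, and 876 and 486 in liver. It was higher in distal colon than in jejunum and ileum by 1.71 (limma adjusted p = 0.00309), as Tlr4 was, but lower in spleen than in the mean of the others (-1.27, limma adjusted p = 0.00228). Lbp, which carries lipopolysaccharide in plasma, was highest in liver, at 4682 and 2619 units.

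Tlr5 encodes the flagellin receptor and was above the floor on all 10 arrays in a narrow range. It had 217 units in liver at 28 months and 293 at 4 months, 176 and 169 in distal colon, 157 and 185 in ileum, 141 and 166 in jejunum, and 129 and 158 in spleen. Liver stood above the other tissues at both ages, and each of the 4 others overlapped the next. Liver exceeded the mean of the others by 0.66 (SE 0.097, limma adjusted p = 0.00140). Spleen minus the mean of the others was -0.36 (limma adjusted p = 0.0167), but the call was lost without liver (-0.21, limma adjusted p = 0.103) and without the spleen array of 4 months (-0.40, limma adjusted p = 0.0771).

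Tlr5 was lower at 28 months in 4 of the 5 tissues, with ratios of -0.43 in liver, -0.29 in spleen, -0.24 in jejunum and -0.23 in ileum, and 0.06 in distal colon. In liver it was 1.35-fold lower, and 2.13% of measured genes were lower still. Over the 5 tissues its age effect was -0.23 (SE 0.077, 95% interval -0.42 to -0.038). Limma called 0 of the 9 genes for age, as it did 0.0% of all genes. Tlr5 was the only listed gene with a limma p under 0.05 before adjustment (0.0259), where 6.94% of all genes had one, and its limma adjusted p was 0.682 (between 0.586 and 0.919 over the alternatives). A share of 1 in 9 near such a background is no result about these genes.

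**Figure D3:**
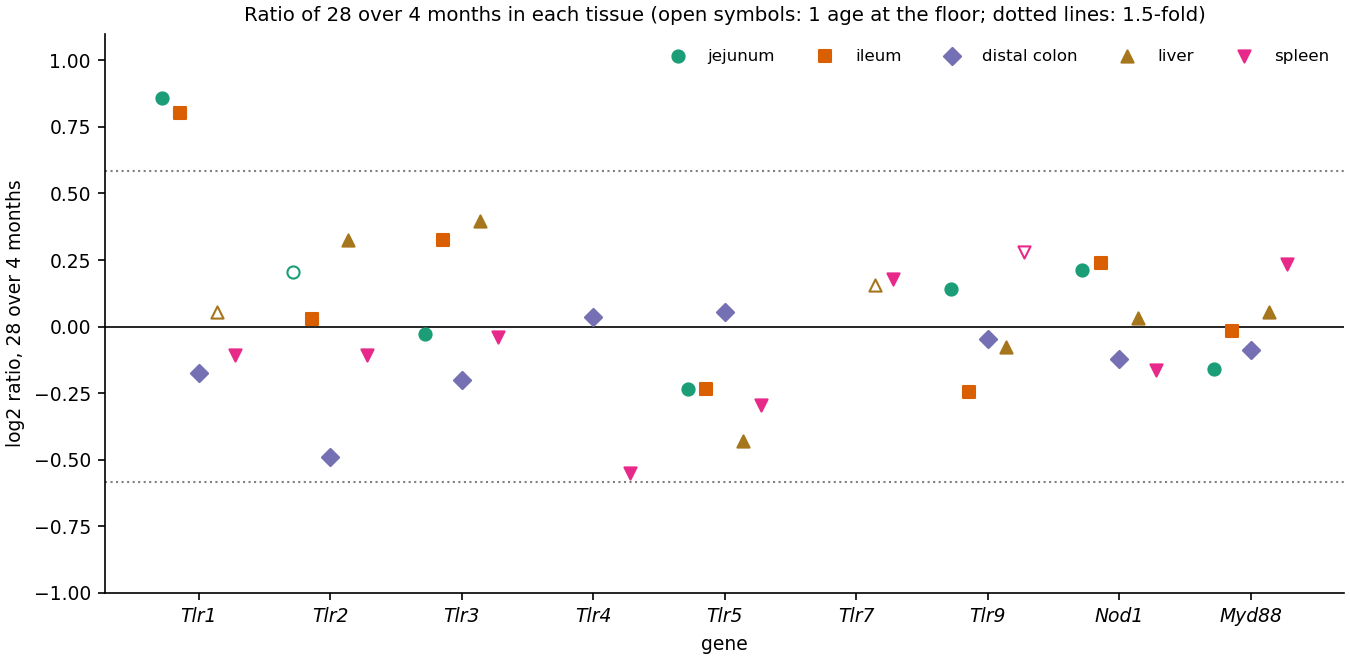
Log2 ratio of 28 over 4 months for each of the 9 genes where it was measured, with 1 symbol per tissue, open symbols for ratios with 1 age at the floor, and dotted lines at 1.5-fold. Tlr1 in jejunum (0.86) and ileum (0.80) are the only points beyond the lines.

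Of the endosomal receptors, Tlr3, which binds duplex viral RNA, had its highest mean levels in the small intestine. On its brightest probe set it had 663 units in ileum at 28 months and 529 at 4 months, 582 and 593 in jejunum, 491 and 564 in distal colon, 331 and 340 in spleen, and 306 and 233 in liver. Ileum overlapped jejunum, and it also overlapped distal colon, which was the higher of them at 4 months (564 and 529 units). No other tissues overlapped. The difference from the mean of the others was -0.90 in liver (SE 0.13, limma adjusted p = 0.00128). In spleen it was -0.49 (limma adjusted p = 0.0155), and that call was lost without jejunum (-0.38, limma adjusted p = 0.0721), without ileum (-0.38, limma adjusted p = 0.0523) and without the spleen array of 4 months (-0.57, limma adjusted p = 0.0737). With the floor at percentile 75 the liver and spleen calls were both lost (-0.18 in each, limma adjusted p = 0.154 and 0.145). Distal colon differed from jejunum and ileum by -0.16 (95% interval -0.51 to 0.18, limma adjusted p = 0.407). The ratios between the ages were 0.40 in liver, 0.32 in ileum, -0.03 in jejunum, -0.04 in spleen and -0.20 in distal colon. The dimmer Tlr3 probe set was highest in distal colon at 4 months (185 units). It had ratios of 0.05 in ileum and -0.19 in distal colon, and in liver it was below the floor at both ages (81 and 106 units). The liver and ileum ratios therefore rest on the brighter one, whose suffix marks probes that can read several transcripts.

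Tlr7, which binds viral RNA in plasmacytoid dendritic cells, B cells and macrophages, was a spleen gene on these arrays. It had 536 units in spleen at 28 months and 474 at 4 months, against 123 and 94 in liver, 93 and 79 in distal colon, 77 and 80 in ileum, and 103 and 72 in jejunum. Of the 8 arrays outside spleen, only liver at 28 months was above the floor. Spleen exceeded the mean of the others by 2.17 against the floor (SE 0.068, limma adjusted p = 3.57e-06), a call lost with the floor at percentile 75, and its mean level was at least 4.55-fold that of each intestinal segment. All intestinal values were raised to the floor and so had no spread between the ages, and this SE and p-value rest largely on such values. Liver was lower than the mean of the others (-0.47, limma adjusted p = 0.00139), but that mean contains spleen, and with spleen left out the difference was 0.08 (limma adjusted p = 0.246). The call was also lost with the floor at percentile 25 (limma adjusted p = 0.0825) and with no floor (limma adjusted p = 0.0563). The ratio between the ages was 0.18 in spleen and 0.16 as a bound in liver. Its other 2 probe sets were below the floor on all 10 arrays. Tlr8, the neighbour of Tlr7 on chromosome X, was below the floor on all 10 arrays as well, between 64 and 94 units.

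Tlr9, which binds unmethylated bacterial DNA, stayed close to the floor everywhere. Its signal was 134 units in spleen at 28 months and 110 at 4 months, 131 and 138 in liver, 127 and 151 in ileum, 125 and 113 in jejunum, and 120 and 124 in distal colon. The highest array was 1.37-fold above the floor, each tissue overlapped the next in order of level, and none of the 4 tissue contrasts passed the test, with spleen minus the others at -0.07 (95% interval -0.33 to 0.19, limma adjusted p = 0.591). Its ratios between the ages were 0.28 as a bound in spleen, 0.14 in jejunum, -0.05 in distal colon, -0.08 in liver and -0.25 in ileum. A difference in Tlr9 was not detectable at signals this near background.

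Nod1, the cytosolic receptor for peptidoglycan fragments that carry diaminopimelic acid, was above the floor on all 10 arrays. It had 1266 units in spleen at 28 months and 1418 at 4 months, 703 and 764 in distal colon, 570 and 557 in liver, 374 and 317 in ileum, and 333 and 287 in jejunum. The tissues held the same order at both ages, and only ileum and jejunum overlapped. Spleen exceeded the mean of the others by 1.55 (SE 0.10, limma adjusted p = 4.02e-05), and distal colon exceeded jejunum and ileum by 1.17 (SE 0.11, limma adjusted p = 0.000924), which is 2.25-fold. Liver differed from the mean of the others by -0.01 (limma adjusted p = 0.918). That difference was 0.40 with spleen left out (limma adjusted p = 0.0210), but -0.29 with the floor at percentile 75 (limma adjusted p = 0.00463). The ratios of Nod1 between the ages were small, at 0.24 in ileum, 0.21 in jejunum, 0.03 in liver, -0.12 in distal colon and -0.16 in spleen.

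Myd88, the adaptor that most Toll-like receptors use, was the flattest of the genes well above the floor. It had 1386 units in spleen at 28 months and 1178 at 4 months, 933 and 944 in ileum, 903 and 961 in distal colon, 872 and 974 in jejunum, and 856 and 824 in liver. The highest and the lowest array differed by 1.68-fold, against 19.6-fold for Tlr1 with its lowest array raised to the floor. Spleen exceeded the mean of the others by 0.49 (SE 0.088, limma adjusted p = 0.00285). In liver the difference was -0.26 (limma adjusted p = 0.0388), a call that did not hold with equal medians (limma adjusted p = 0.0691), quantile normalisation (limma adjusted p = 0.0784), no floor (limma adjusted p = 0.0546), all genes tested (limma adjusted p = 0.0593), without spleen (limma adjusted p = 0.0830) or without the ileum array of 4 months (limma adjusted p = 0.0672). The ratio between the ages was 0.24 in spleen and between -0.16 and 0.05 in the other tissues.

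**Figure D4:**
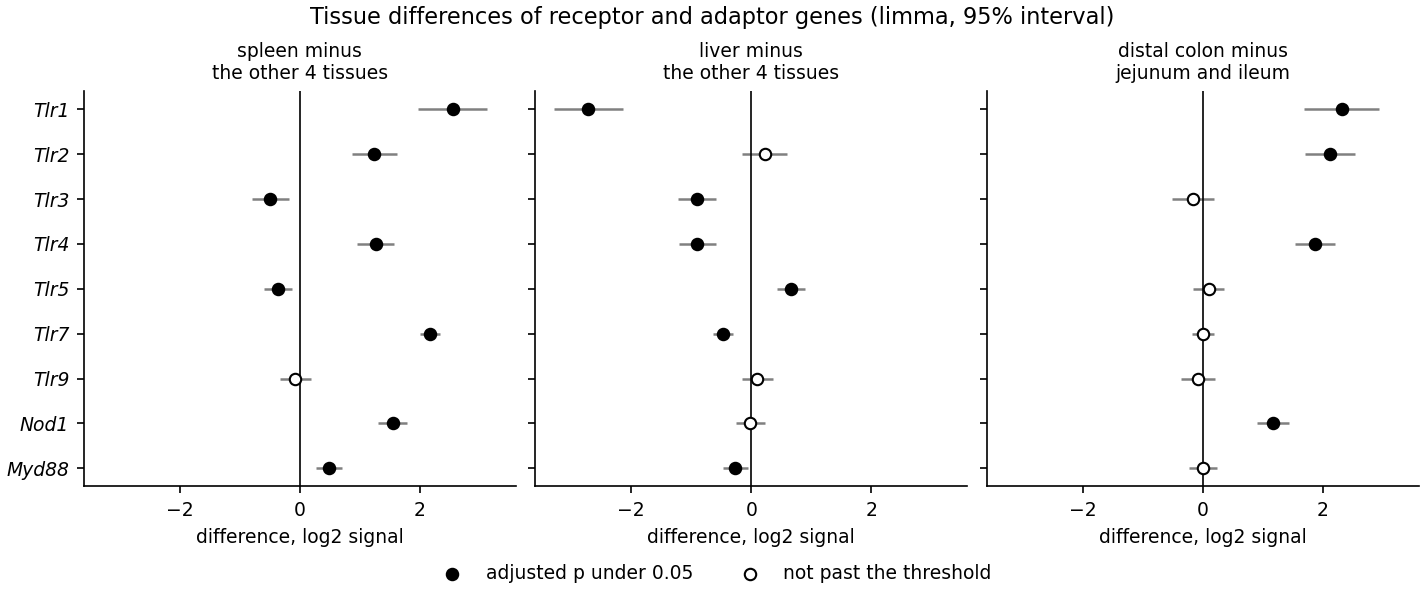
Differences in log2 signal of the 9 genes in 3 tissue contrasts (spleen minus the other 4 tissues, liver minus the other 4, distal colon minus jejunum and ileum), as limma estimates with 95% intervals. Filled points passed the adjusted p threshold of 0.05. Tlr1 has the largest difference in spleen (2.55) and in liver (-2.72).

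Between the ages Tlr1 was the only one of the 9 genes past 1.5-fold in any tissue. None reached 2-fold in either direction in any tissue, although Tlr1 in liver is a bound and counts as past 2-fold with the floor at percentile 25 (1.16). Of all measured genes 1.27% did so in jejunum, 2.55% in ileum and 1.04% in distal colon, and 1.46% and 0.939% did in liver and spleen. Tlr1 was the 1 gene of 7 measured in jejunum, and of 7 in ileum, that was 1.5-fold higher, where 2.01% and 5.22% of measured genes were. In distal colon, liver and spleen 0 of 8, 8 and 9 genes were 1.5-fold higher, against 2.57%, 4.0% and 3.19% of all. None was 1.5-fold lower, against 3.04% of all genes in jejunum, 4.17% in ileum and 2.35% in distal colon, and 0.8% and 1.95% in liver and spleen. The median ratio was 0.14 over the 7 genes of jejunum, beside 0.03 over all genes measured there, and 0.03 over the 7 of ileum, beside 0.03. In distal colon it was -0.11, beside 0.03, in liver 0.05, beside -0.01, and in spleen -0.10, beside 0.01.

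The pathway genes around the receptors had their largest count of 1.5-fold ratios in liver. Of 95 listed partners, targets and related receptors, 84 were found and the others were not analysed here. In liver 17 of 66 measured were 1.5-fold higher at 28 months and 0 lower, beside 4.0% and 0.8% of all measured genes, with a median of 0.22. Beside 1.46% of all measured genes in either direction, 7 of the 66 reached 2-fold. They included Irf7, the interferon regulatory factor downstream of TLR7 and TLR9, at 2.80-fold, the neutrophil chemokine Cxcl1 at 2.33-fold, the endolysosomal transporter Slc15a3 at 2.28-fold, Tlr13, the receptor for bacterial ribosomal RNA in mice, at 2.25-fold (259 units at 28 months and 115 at 4 months), the T cell chemokine Ccl5 at 2.19-fold and Naip2, an inflammasome sensor, at 2.01-fold. Among the coreceptors 4 of 5 measured were 1.5-fold higher there, Ly86 at 1.92-fold, Cd14 at 1.80-fold, Lbp at 1.79-fold and Cd36 at 1.72-fold, the names taken after their values had been seen.

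The same liver arrays differed in immune cell markers. Macrophage markers summed to 28532 units at 28 months and 16089 at 4 months, with 11 of 14 at 1.5-fold and 4 at 2-fold (median 0.90), and none of the 14 below the floor at both ages. Adgre1 had 941 and 600 units and Csf1r 6408 and 3883. Neutrophil markers summed to 2607 and 1055, with 3 of 9 measured at 2-fold, among them the calprotectin subunits S100a8 (864 and 139 units) and S100a9 (532 and 127). Beside them 0 of the 8 measured receptor and adaptor genes reached 1.5-fold against the floor, but Tlr1 (115 and 51 units) gives only a bound there, and its ratio was 1.16 as measured. The part of these cells in the ratios of the listed genes was not tested.

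Outside liver the partners moved in small numbers. Of all measured genes, 0.939% reached 2-fold in either direction in spleen, 1.04% in distal colon, 1.27% in jejunum and 2.55% in ileum. The counts of 1 of 68 in distal colon and 1 of 69 in ileum are near or below those shares and are no result about the pathway. In spleen 3 of 71 measured reached 2-fold, all higher at 28 months, namely the chemokines Ccl4 at 2.87-fold, Ccl5 at 2.30-fold (named after its value had been seen) and Ccl3 at 2.59-fold as a bound, while neutrophil markers there summed to 42742 and 16966 units, with 7 of 10 at 2-fold. In distal colon Ccl5 was 2.71-fold higher, the only 1 of 68, where B cell markers summed to 4736 and 2365 units (4 of 10 measured at 2-fold) and T cell markers to 2539 and 1635 (3 of 7 measured at 2-fold). In jejunum 2 of 65 were 2-fold lower, Slc15a1, a peptide transporter that can carry NOD ligands into enterocytes, at 2.14-fold and Naip5, the inflammasome sensor of flagellin, at 2.07-fold. In ileum Cd36, a fatty acid and lipoprotein receptor that aids TLR2, was 3.67-fold lower, the only 1 of 69, on the arrays that also differed in Lct. Limma called 0 of 75 listed genes for age.

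**Figure D5:**
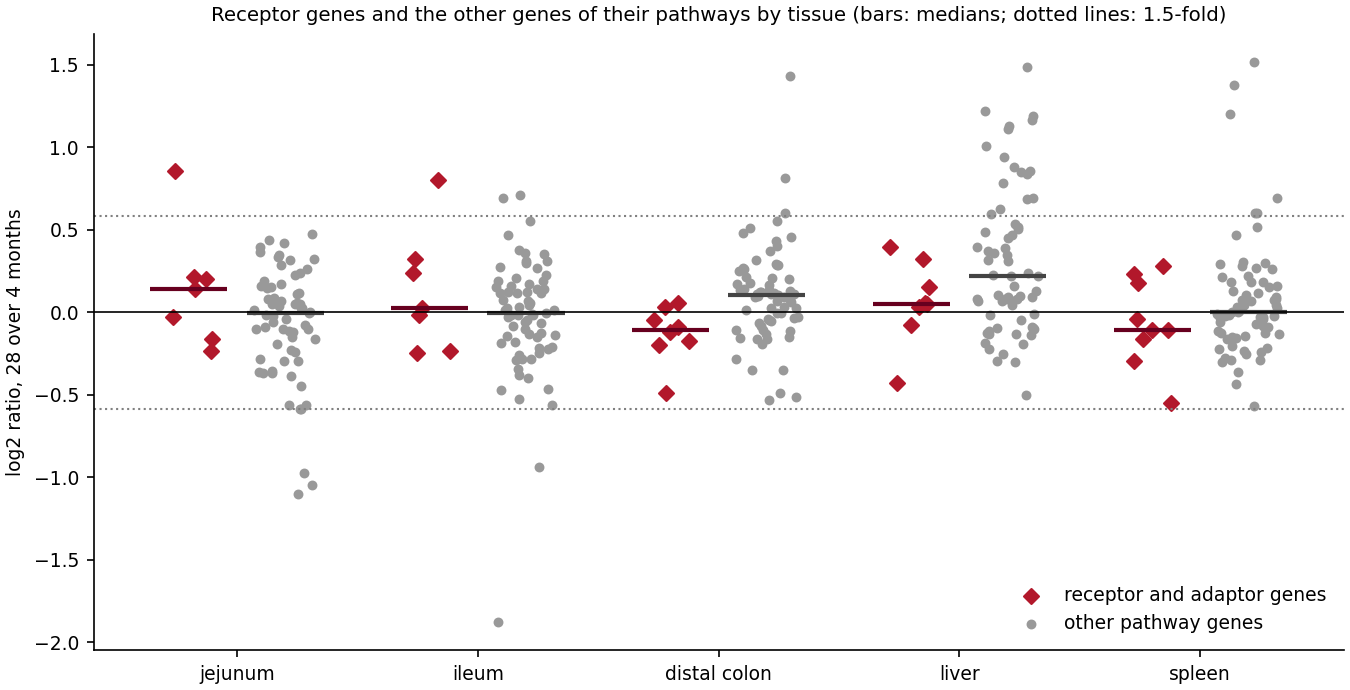
Log2 ratio of 28 over 4 months of the 9 genes (diamonds, left in each tissue) and of the measured pathway genes (grey points, right in each tissue), with medians as bars and dotted lines at 1.5-fold. In liver 17 of 66 pathway genes lie above the upper line, beside 4.0% of all measured genes. None of the 8 receptor and adaptor genes measured there does, but Tlr1 is a bound (1.16 as measured).

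Between tissues, 39 of the 75 tested pathway genes were higher in spleen than in the other tissues and 10 lower, beside 33.4% and 33.3% of all genes. They included 8 of 10 NF-kappa-B and interferon regulatory factor genes, among them Irf8 (2.50, limma adjusted p = 4.03e-05) and Irf5 (1.64, limma adjusted p = 0.000100), and Unc93b1, the chaperone that takes endosomal Toll-like receptors to endosomes (1.48, limma adjusted p = 4.20e-05), all named after their values had been seen. In liver 15 were higher and 31 lower, beside 25.9% and 37.5% of all genes, with 7 of the 10 other NOD-like receptor and inflammasome genes lower. In distal colon 15 were higher than in jejunum and ileum and 11 lower, beside 25.4% and 15.0% of all genes. Adaptors split there, with Tirap, which links TLR2 and TLR4 to MyD88, higher by 0.74 (limma adjusted p = 0.00450) and Ticam1, the adaptor of TLR3, lower (-1.02, limma adjusted p = 0.00285), named after their values had been seen. None of the 75 differed between ileum and jejunum by limma's adjusted p, though some, such as Ly96, were below the floor in both segments and could not.

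Likeness over the 10 arrays is given as Pearson's r on log2 signals, as a description, since the arrays share 5 tissues and r mostly reflects levels between tissues. Among 9015 genes that reached 2 floors and spanned at least 1 on the log2 scale, the closest to Tlr1 were Mettl14 (0.994) and Inpp5k (0.993), to Tlr2 Ube2r2 (0.974) and Prkacb (0.967), and to Tlr4 B3gnt5 (0.995) and Gcnt1 (0.989). Those closest to Nod1 were Paip2 (0.994) and Pou6f1 (0.989), to Tlr3 Sipa1l3 (0.982) and Eps8 (0.978), to Tlr5 Tbc1d12 (0.955) and Rnf214 (0.955), and to Tlr7 the gene 4930486L24Rik (0.999) and the platelet chemokine Ppbp (0.999). Tlr7 was above the floor on 3 arrays, and these 2 genes reached 2 floors only in spleen, so their r follows largely from values tied at the floor elsewhere. In jejunum, ileum and liver every array of Tlr4 and Gcnt1 was below the floor, and so was B3gnt5 except in ileum at 28 months (141 units). Their r with Tlr4 therefore rests largely on such ties as well. Tlr9 and Myd88 spanned less than 1 and were left out. Within the set r was 0.92 between Tlr2 and Nod1, 0.91 between Tlr1 and Tlr4 and 0.85 between Tlr2 and Tlr4, and it was lowest between Tlr1 and Tlr5, at -0.68. The values with Tlr4 also include its arrays tied at the floor.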

How the data were processed

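The authors deposited 1 table of log2 signals, with 1 value per probe set and array. Per the submitters' processing notes, MAS5 and the affy package were used, with no version or role given. The values ran between 2.71 and 14.8 and were read as base 2, since the log base and the normalisation between arrays were not given in the sources used here.

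Values were taken out of the log, arrays were brought to a mean of 500 units with 2% trimmed at each end (factors 2.42 to 2.57), and anything under 111 units, the overall median, was raised to that floor. Per array 48.9% to 50.9% of probe sets lay above it. The arrays give no counts, so their number limits the precision. Probe sets were named from GEO's platform annotation, in which 34958 named 1 gene, 932 several and 9211 were not listed. Ratios within a tissue were described without a test. Tissue differences and the age effect were fitted with limma 3.58.1 in R 4.3.3, with tissue and age as terms, 4 residual degrees of freedom and two-sided Benjamini-Hochberg adjusted p-values, over genes above the floor on at least 1 array. Tables were made with Python 3.11.15, numpy 2.4.6 and pandas 2.3.3, and figures with matplotlib 3.10.9.

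The genes and lists were chosen with earlier results of these data known. Named were the listed genes, up to 2 pathway genes per list and tissue with the largest ratio past 2-fold, the 2 genes most alike to each listed gene, the leading genes of marker lists that are discussed, and the label check genes. Others are marked as named after their values had been seen.

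Alternatives were a floor at percentile 25 or at percentile 75, 16 units added in place of a floor, equal medians, quantile normalisation, lowess within a tissue (span 0.3, ages only), the median over probe sets, leaving out probe sets with a suffix for shared transcripts, thresholds of 1.5-fold and 3-fold, no filter, a trended prior, and leaving out each tissue. Leaving out the 4-month array of ileum or of spleen was chosen after the data had been seen. The computation was tested on simulated data with known changes.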

Additional observations from a re-analysis of the deposited data

How the results depend on the processing

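Counts of the 9 genes kept their value to within 1.5 times in 120 of 126 recomputations. The exceptions were 1 gene past the threshold in jejunum and 1 in ileum at 1.5-fold (Tlr1 in both), 1 in liver with the floor at percentile 25 (Tlr1, ratio 1.16), and, with the floor at percentile 75, 3 genes called in spleen (8 in the report), 3 in liver (6) and 2 in distal colon (4), a floor of 481 units above most of these signals. With that floor Tlr2 lost its calls in spleen (0.09, limma adjusted p = 0.418) and in distal colon (0.21, limma adjusted p = 0.163). Tlr7 lost its calls in spleen (0.078, limma adjusted p = 0.200) and in liver (-0.02, limma adjusted p = 0.746). Tlr3 lost its calls in spleen and in liver (-0.18 in each, limma adjusted p = 0.145 and 0.154). Nod1 gained a call as lower in liver (-0.29, limma adjusted p = 0.00463). Among values of single genes 919 kept their side of the threshold or, untested, moved by less than the spread, though 46 of these, none of them called, took the opposite sign. A further 19 lost a call, 2 gained one, 8 moved and 2 reversed. The reversals were liver minus the other tissues without spleen, for Tlr7 (0.078) and for Nod1 (0.40). No call of the age effect appeared under any alternative. Without the spleen array of 4 months 6 genes were called in spleen, and without the ileum array of 4 months 5 were called in liver. The age effect compares the ages within each tissue, and the tissue contrasts were fitted with age as a term. No other paired analysis was possible, with 1 pooled array per tissue and age and no replicate numbers in the labels. Leaving out a tissue gave no value for contrasts that need it. Tlr9, and Tlr4 and Tlr7 outside the tissues where they were measured, were too near background for a difference to be seen.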
